A study of Mus musculus with 2 samples.

Results

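The clustered protocadherin genes form 3 neighbouring arrays, Pcdha, Pcdhb and Pcdhg, on mouse chromosome 18, and their DNase I accessibility was read in embryonic liver. Members were the protein-coding entries of GENCODE vM21 whose symbols start with Pcdha, Pcdhb or Pcdhg. They numbered 57 of 21938 protein-coding entries, with 14 in Pcdha, 22 in Pcdhb and 21 in Pcdhg. The 57 entries carry 56 symbols, because Pcdha11 stands on 2 entries of the annotation. On build mm10 the Pcdha genes span chr18:36930184-37187661, the Pcdhb genes chr18:37264938-37524479 and the Pcdhg genes chr18:37661793-37841873. The region examined runs from 200 kb before the first gene to 200 kb after the last, chr18:36730184-38041873, and every member is transcribed from the plus strand.

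Clustered protocadherins are cadherin-related cell surface proteins best known from the brain, where different combinations of them on each neuron let its branches recognise and avoid one another. Each variable exon of Pcdha and Pcdhg has its own promoter and is spliced to constant exons shared within its cluster, whereas Pcdhb genes have no constant exons. In neurons the alternative promoters are chosen stochastically, while the C-type genes at the ends of Pcdha and Pcdhg are transcribed more uniformly. The DNA-binding protein CTCF and the cohesin ring bind alternative promoters and distant enhancers there and bring them together.

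DNase-seq maps open chromatin by its ready cleavage with DNase I, and it had been run on 2 libraries. Both came from embryonic liver at 13.5 days on a C57BL/6N,129 background, labelled wild type with the A85 YAC in multiple copies. They carry one donor label, are given as biological replicates 1 and 2, and form 1 group with no second condition. The content of the YAC was not given in the sources used here. Clusters were therefore compared with each other, with their flanks and with all protein-coding genes, by counts and shares without a test, because neighbouring paralogs are not replicates of a condition.

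Replicate 1 had 76130 peaks and replicate 2 had 73852, and merging them by an overlap of at least 1 bp gave 99252 regions. Of these, 45831 held peaks of both replicates and are called shared. Peak signals were whole multiples of a step of 0.0127 in replicate 1 and 0.00604 in replicate 2. If 1 step is 1 count, which no source states, the median peak rested on 69 and 126 counts. Counts and their intervals below take this reading. The tissue label was set against markers. Erythroid promoters were in shared regions for 7 of 8 genes, with Alas2, which makes the first enzyme of heme synthesis in red cells, in replicate 2 only. Hepatoblast promoters were in shared regions for 2 of 6 genes, Foxa3 (12.0 and 7.93 in replicates 1 and 2) and Afp (1.40 and 1.42). Of the other hepatoblast genes, Alb had a peak in replicate 1 only (0.367), and Hnf4a (0.404), Ttr (0.634) and Apoa1 (1.05) had one in replicate 2 only. The other lists gave 8 of 12 for neurons and neural progenitors, 2 of 6 each for mesenchymal and endothelial cells, and 0 of 6 for macrophages, beside 58.4% of all protein-coding genes. In bulk tissue a small number of accessible cells and weak accessibility in many cells cannot be told apart.

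Few protocadherin promoters were accessible. Of the 57 members, 5 had a transcript start within 1 kb of a shared region (8.77%, 95% Wilson interval 3.81 to 18.9%), beside 58.4% of all protein-coding genes. Counting replicate 1 by itself gave 9 members (15.8%, 8.54 to 27.4%), beside 60.6% of all genes. Counting replicate 2 by itself gave 7 members (12.3%, 6.08 to 23.2%), beside 65.3%. Intervals cover counting error only, and neighbouring genes with similar sequence are not independent draws.

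The clusters differed in these counts. Pcdhg held 4 of the 5 members with a shared region (19.0% of its 21 genes, 7.67 to 40.0%). Pcdha held 1 of 14 (7.14%, 1.27 to 31.5%), and Pcdhb held 0 of 22, for which the interval reaches 14.9%. These 3 intervals overlap. In replicate 1 the counts were 8 in Pcdhg (38.1%, 20.8 to 59.1%), 1 in Pcdha and 0 in Pcdhb (0 to 14.9%). The intervals of Pcdhg and Pcdhb did not overlap there. They treat neighbouring genes as independent draws, so this is no test between the clusters. In replicate 2 the counts were 4 in Pcdhg (19.0%, 7.67 to 40.0%), 2 in Pcdha (14.3%, 4.01 to 39.9%) and 1 in Pcdhb (4.55%, 0.807 to 21.8%), and the intervals overlapped.

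**Figure D1:**
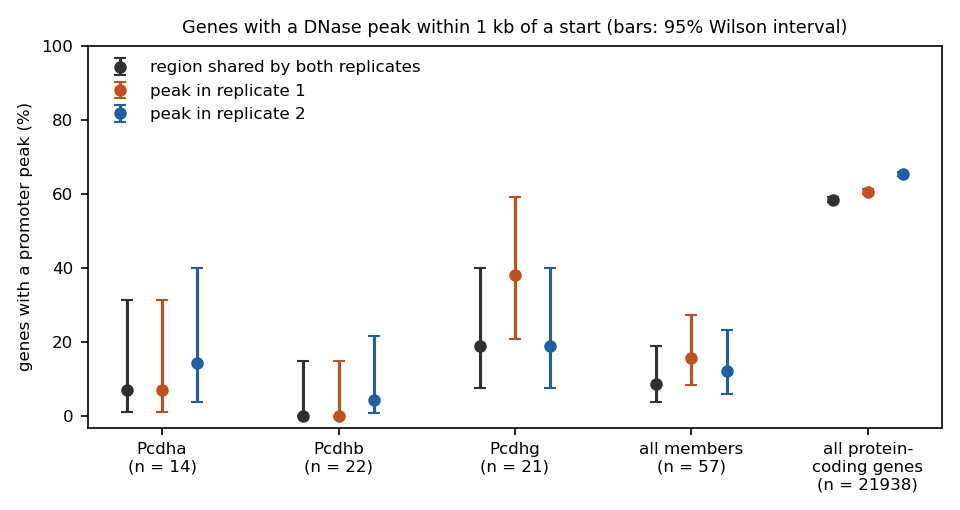
Percent of genes with a promoter peak (vertical axis) in each cluster, over all 57 members and over all protein-coding genes. Points give the shared regions and each replicate, and bars give 95% Wilson intervals; all members together lie at 8.77 to 15.8%, against 58.4 to 65.3% for all genes.

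Members were also split by kind of promoter. Over all protein-coding genes, 58.4% had a shared region and 67.1% a peak in either replicate. Among the C-type genes, 3 of 5 had a shared region and 4 of 5 a peak in either replicate. These are too few genes to place near or away from the shares of all genes. Pcdhac1, among the 3, rested on 17 counts in replicate 1. Of the other 52 members, 2 had a shared region and 7 a peak in either replicate. None of the 12 entries from Pcdha1 to Pcdha12 had a peak in either replicate. Among the alternative Pcdhg genes, 4 of 6 Pcdhgb genes and 2 of 12 Pcdhga genes had a peak in either replicate. This split rested on replicate 1. By replicate 2, and by shared regions, the counts were 1 of 6 Pcdhgb genes and 1 of 12 Pcdhga genes. These kinds were compared after the values were seen.

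Pcdhgc3, whose cytoplasmic part binds the Wnt pathway scaffold Axin1, had the highest member promoter in both libraries. Its peak signal was 1.59 in replicate 1 (1.33 to 1.90, exact 95% Poisson interval of 126 counts) and 1.76 in replicate 2 (1.56 to 1.97, 291 counts). The intervals overlap, and the peak centres lay 13 and 23 bp before the annotated start. Even this value was at percentile 22.8 in replicate 1 and 29.7 in replicate 2 among the highest promoter peaks of all genes that had one, whose medians were 5.66 and 4.35.

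Pcdhgc4, which supports neuron survival in mouse, had signals of 1.01 (0.803 to 1.26) in replicate 1 and 0.948 (0.805 to 1.11) in replicate 2. Its peaks were centred 297 and 291 bp downstream of the start. The neighbouring C-type gene Pcdhgc5 had no peak within 1 kb of its start in either library.

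Pcdhgb6, an alternative Pcdhg gene, had signals of 1.35 (1.11 to 1.64) in replicate 1 and 0.893 (0.755 to 1.05) in replicate 2. The peaks of both libraries had identical bounds, chr18:37741941-37742120, across the start. The 2 intervals do not overlap, and replicate 2 divided by replicate 1 gave 0.660, beside a median of 0.913 over all shared promoter regions. Pcdhga12 had 0.519 (0.372 to 0.704) in replicate 1 and 0.700 (0.579 to 0.840) in replicate 2, with centres 333 and 335 bp downstream of its start.

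Pcdhac1, a C-type Pcdha gene, had 0.215 (0.125 to 0.345, 17 counts) in replicate 1 and 0.362 (0.276 to 0.466, 60 counts) in replicate 2. It was the only Pcdha gene with a shared promoter region, and its peak in replicate 1 stood at percentile 0.338 among gene promoters with a peak. Pcdhac2, which spaces the axons of serotonergic neurons in mouse, had no peak in replicate 1. In replicate 2 it had 3 promoter peaks, the highest of 0.416 (0.324 to 0.527), and the other peaks had 0.254 and 0.344.

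Peaks of 1 library alone lay at 6 further promoters or their first exons, Pcdhac2 among them. Replicate 1 alone had Pcdhga11 at 1.05 (0.837 to 1.30), Pcdhgb7 at 0.823 (0.635 to 1.05), Pcdhgb5 at 0.506 (0.362 to 0.689) and Pcdhgb4 at 0.354 (0.235 to 0.512). These 4 make up 7.02% of the members, beside 1.80% of all genes by the same count. Replicate 2 alone had Pcdhac2 and Pcdhb1, or 3.51% of the members, beside 6.48% of all genes. The Pcdhb1 peak, at 0.241 (0.172 to 0.329), lay 744 bp downstream of the start in the coding exon, and it was the only Pcdhb promoter peak in either library.

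**Figure D2:**
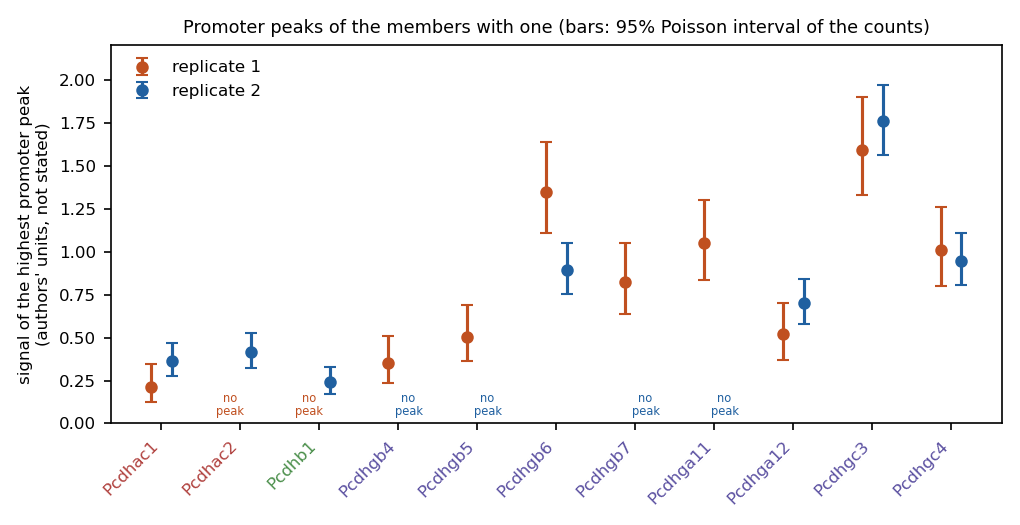
Signal of the highest promoter peak (vertical axis, authors' units) of each of the 11 members with one, in gene order, with replicate 1 and replicate 2 side by side. Bars are 95% Poisson intervals of the counts behind the value, and "no peak" marks a library without a peak; Pcdhgc3 is highest in both libraries, at 1.59 and 1.76.

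In Pcdhg the peaks began partway along the array, and the genes are split here at the first promoter with a peak, so the contrast between the parts is set by the peaks themselves. That promoter, of Pcdhgb4, had a peak in replicate 1 alone (0.354, 28 counts). In replicate 2, and among shared regions, the first was that of Pcdhgb6. The first 9 genes, from Pcdhga1 to Pcdhga7, had no peak within 1 kb of a start in either library. Of the 12 genes from Pcdhgb4 to the end, 8 had a peak in replicate 1 and 4 in replicate 2, and those 4 were among the 8. Over all protein-coding genes 60.6% had a promoter peak in replicate 1 and 65.3% in replicate 2. Pcdhgb8, annotated as a polymorphic pseudogene and so not a member, also had a peak in replicate 1 alone (0.734), ending 41 bp before its start. Of 23 noncoding and pseudogene 5' ends in the gene span, 0 had peaks of both replicates, 2 had one in replicate 1 alone and 1 had one in replicate 2 alone.

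The deposited false discovery rates (FDR) list only bases with an FDR under 0.05, so weaker signal could not be read from them. Each called region of the gene span held listed bases in the library that called it. Counts of listed bases are therefore not independent of the peak calls. All 46 members without a peak had 0 listed bases within 1 kb of a start in both libraries. Over the members, 9 windows held a listed base in replicate 1 (15.8%), beside 62.1% of all genes, and 8 in replicate 2 (14.0%), beside 66.2%. The 1 additional window of replicate 2 was that of Pcdhgb7, with 18 bases whose lowest FDR was 0.0465. The regions of Pcdhgb4, Pcdhgb5 and Pcdhga11 had 0 listed bases in replicate 2. At the other end, the lowest FDR at Pcdhgb6 was 9.59e-10 in replicate 1 and 0.00219 in replicate 2, and at Pcdhgc3 it was 1.52e-07 and 1.06e-07.

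Across the gene span of 912 kb there were 10 shared regions, 6 at promoters and 4 distal, with distal meaning more than 1 kb from every protein-coding start. Replicate 1 alone had 9 more regions, of signal 0.177 to 1.05, and replicate 2 alone had 5 more, of signal 0.241 to 0.416. The highest 3 of replicate 1 alone were those at Pcdhga11, Pcdhgb7 and Pcdhgb8. The highest 3 of replicate 2 alone were 0.416 at Pcdhac2, 0.362 at the 5' end of the noncoding gene Gm10544 in the Pcdha span, and 0.344 in the first exon of Pcdhac2. Shared regions numbered 11.0 per Mb in the gene span, beside 16.8 per Mb in the whole genome. They numbered 55.0 per Mb in the 200 kb upstream and 75.0 per Mb in the 200 kb downstream.

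Among the 3 clusters, peaks covered the least of Pcdha and Pcdhb. They covered 0.0676% of the Pcdha span in replicate 1 and 0.517% in replicate 2, and 0.0651% and 0.0143% of the Pcdhb span. In Pcdhg they covered 1.15% and 0.754%, beside 0.558% and 0.620% of the genome. The Pcdhb span of 260 kb had no shared region, and its 2 peaks in replicate 1 (0.266 in the coding exon of Pcdhb14 and 0.177 in that of Pcdhb4) lay more than 1 kb from a start. The lone Pcdha peak of replicate 1 away from promoters had 0.228 and lay in the coding exon of Pcdha2.

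**Figure D3:**
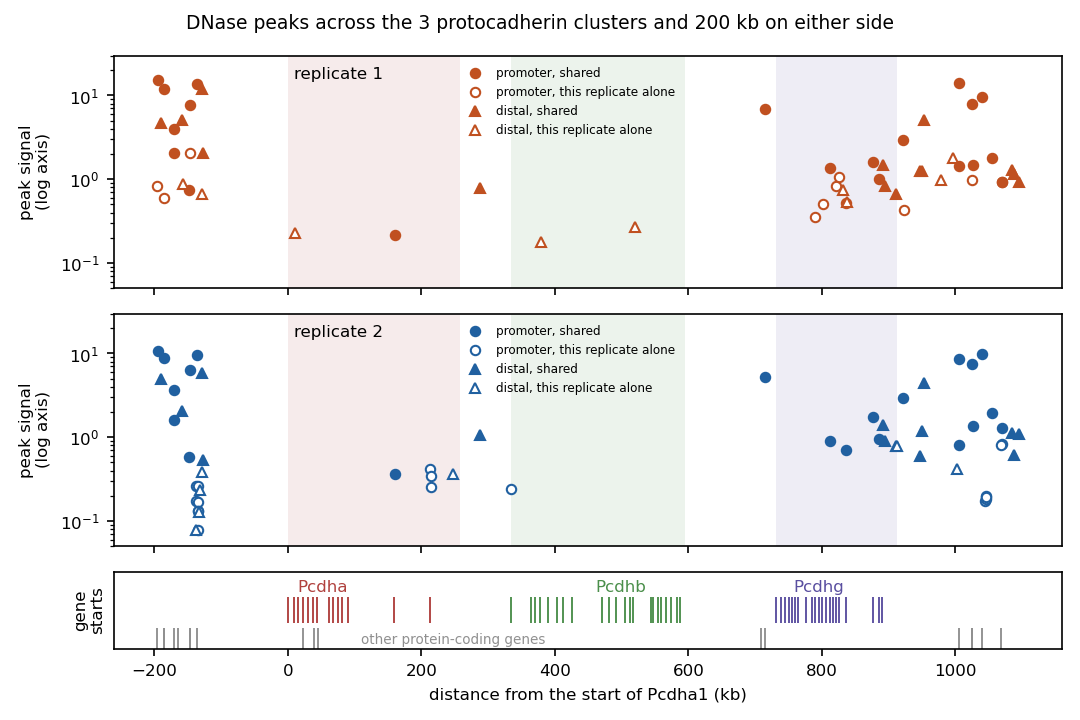
Peak signal (vertical log axis) against distance from the start of Pcdha1 (horizontal axis, kb) in replicate 1 and replicate 2, with gene starts below and the Pcdha, Pcdhb and Pcdhg spans shaded. Filled symbols are shared regions and open symbols regions of that library alone; 1 shared region lies in Pcdha, 0 in Pcdhb and 7 in Pcdhg, between flanks with 11 and 15.

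The 4 distal shared regions fell in Pcdhg and in the gap after Pcdha. The first, chr18:37218241-37218440, lay between the clusters, 46498 bp upstream of Pcdhb1, in an interval crossed by the introns of annotated read-through transcripts. Its signal was 0.785 (replicate 1) and 1.07 (replicate 2), at percentiles 30.7 and 59.0 of shared distal regions, and it was the only shared region of that gap. Enhancers of Pcdha described in neural cells lie among and beyond its constant exons, and whether this region is one of them was not tested.

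The other 3 lay in the last part of Pcdhg. Region chr18:37822561-37822760, in an intron 2907 bp from the Pcdhgc5 start, had 1.46 and 1.39, at percentiles 62.0 and 71.1. Region chr18:37824969-37825149 had 0.835 and 0.893 and overlapped a coding exon shared by the Pcdhg genes. Region chr18:37841403-37841588 had 0.671 and 0.791 and lay in the 3' untranslated region that the Pcdhg genes share. In all 3 the values of the replicates differed by a ratio of 0.954 to 1.18. Shared distal regions numbered 16.7 per Mb in Pcdhg and 0 per Mb in Pcdha and Pcdhb, beside 9.48 per Mb in the genome.

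Genes around the clusters showed the opposite pattern to the members. In the flanks 12 of 13 protein-coding genes had a shared promoter region, beside 58.4% of all protein-coding genes. Their highest peaks within 1 kb of any transcript start had signals of 1.80 to 15.4 in replicate 1 and 1.94 to 10.7 in replicate 2. Upstream these genes were Tmco6, Ndufa2, Ik, Wdr55, Hars2, Hars and Zmat2, and downstream Diaph1, Hdac3, Rell2, Fchsd1 and Arap3. Ndufa2 with Ik, Hars2 with Hars, and Hdac3 with Rell2 were counted on the same peak within each pair. Dnd1, a germ cell gene, had none. Inside the span, Taf7, which encodes a subunit of the general transcription factor TFIID, lies between Pcdhb and Pcdhg and had 6.86 and 5.18. Its neighbour Slc25a2 had no peak, nor did the 3 read-through loci Gm42416, Gm37013 and Gm37388 that start within Pcdha. By its highest peak, Arap3 was the lowest flank promoter, at 1.80 and 1.94. These values were within the counting intervals of the highest member, Pcdhgc3 (1.59 and 1.76), in both libraries. That Arap3 peak lay in a coding exon at an internal transcript start. The shared region nearest the 5' end of Arap3 had 0.937 and 1.30, below the Pcdhgc3 intervals (1.33 to 1.90 and 1.56 to 1.97).

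Footprints, short stretches inside accessible DNA that are shielded from cutting, followed the peaks. The gene span held 26 in replicate 1 and 37 in replicate 2, or 28.5 and 40.6 per Mb, beside 55.4 and 84.8 per Mb in the genome. Of these, 10 overlapped between the libraries, which is 38.5% of the replicate 1 list and 27.0% of the replicate 2 list, beside 56.8% and 35.6% genome-wide. Pcdha had 0 and 10, Pcdhb 0 and 1, and Pcdhg 20 and 19, of which 6 overlapped. Pcdhgb6 had 4 footprints in each library, of which 3 overlapped, as did 3 of 4 at the Taf7 promoter. The 3 overlapping ones of Pcdhgb6 were centred 101, 78 and 18 bp before the Pcdhgb6 start in replicate 1. In replicate 2 they were centred 98, 77 and 18 bp before it. At Pcdhgc3 only 1 footprint, centred on the start, was found in both, although replicate 2 had 6. At Pcdhac1 there were 5 footprints in replicate 2 and 0 in replicate 1, where the peak rested on 17 counts.

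Matches to the CTCF consensus were frequent in Pcdha and lay outside peaks. The consensus was searched on both strands with at most 1 mismatch in the 2 kb around each gene's 5' end. A match was found for 10 of 14 Pcdha entries (71.4%), 1 of 22 Pcdhb genes (4.55%) and 2 of 21 Pcdhg genes (9.52%), beside 20.6% of all protein-coding genes. With no mismatch, 6 of 14 Pcdha windows had one (42.9%), beside 1.72% of all genes. In Pcdha1 to Pcdha12 the 9 matches were all on the forward strand and in the coding exon, 462 to 587 bp downstream of the start. The match of Pcdhac1 lay on the reverse strand, 721 bp downstream. Over the members all 13 matches lay in coding exons, 328 to 844 bp downstream of a start, and none lay before a start. Sites that depart further from the consensus were not searched, so a window without a match may still hold a CTCF site.

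None of the 13 matches at member starts lay in a peak or a footprint of either library. For 11 of the 13 this restates that the window had no peak, and only the windows of Pcdhac1 and Pcdhgb7 held a peak beside the match. Over all protein-coding genes, 37.8% of such matches lay in a peak and 25.7% in a footprint of either library. Bound CTCF usually leaves DNase peaks and footprints, but binding was not measured here. The 31-base words within 50 bp of the matches were all unique in the assembly at 10 of the 13, while at Pcdha7 and Pcdha8 26.8% were unique and at Pcdhb8 98.8%. How reads with several matching places were treated was not given in the sources used here.

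**Figure D4:**
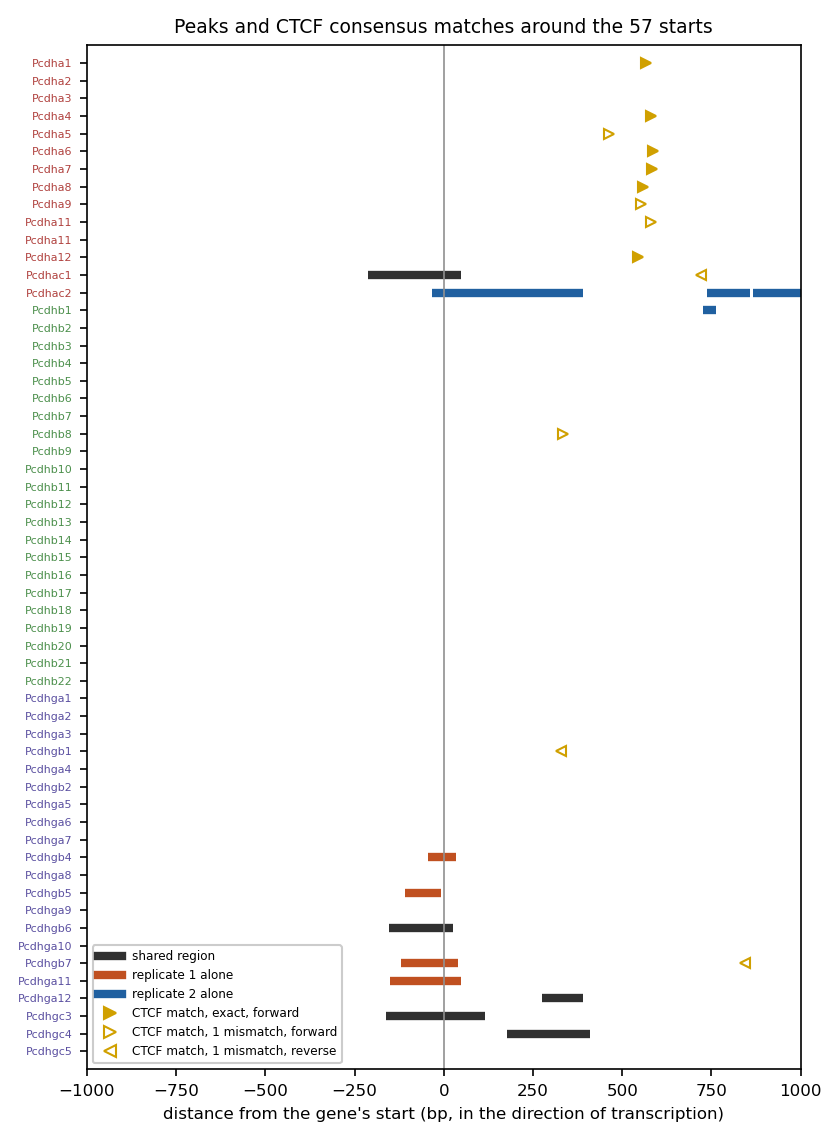
Regions with DNase peaks (bars) and CTCF consensus matches (triangles pointing along the strand) within 1 kb of the start of each of the 57 member entries, in gene order. Forward matches line up 462 to 587 bp downstream of 9 Pcdha starts, away from any peak. The peaks of Pcdhg begin at Pcdhgb4 in replicate 1 and at Pcdhgb6 in replicate 2.

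CTCF matches inside accessible DNA were found at the downstream end of the locus. Among the shared regions of the gene span, 0 of 6 promoter regions and 1 of 4 distal regions held a match, beside 11.4% of shared promoter regions and 41.0% of shared distal regions in the genome. The 1 was chr18:37841403-37841588 in the shared 3' untranslated region, where the match was on the reverse strand and lay in a footprint of both libraries. In the 200 kb downstream, 6 matches followed in 5 of the 15 shared regions (9 promoter and 6 distal), 4 on the reverse strand and 2 on the forward strand. Only called regions were searched there, so a place inside a called region was fixed in advance. All 6 lay in footprints of both libraries and in peaks of replicate 1. In replicate 2, 4 of the 6 lay in a peak. The first of these regions, chr18:37852221-37852420 in an intron of Diaph1, had 2 reverse matches and signals of 2.95 and 2.96. In mouse brain a control region for Pcdhb and Pcdhg has been mapped downstream of Pcdhg, and which of these regions belong to it was not tested. An exact match also lay in the weak Pcdhb14 peak of replicate 1 alone, outside footprints. Matches to the RE1 element of the neuronal gene repressor REST, with up to 2 mismatches, were found in 0 of the 57 member windows, beside 1.96% of all genes.

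CpG content, which separates classes of promoter, had different medians in the clusters. The ratio of observed to expected CpG in the 2 kb windows had a median of 0.641 in Pcdha, 0.334 in Pcdhb and 0.513 in Pcdhg, beside 0.474 over all protein-coding genes. Pcdhb lay at 0.138 to 0.475, with Pcdhb1, its only gene with a promoter peak, at the top. Pcdha lay at 0.520 to 0.702, above the median of all genes in every window, although 12 of its 14 windows had no peak. The 11 members with a peak had a median of 0.566 (0.457 to 0.820), against 0.450 (0.138 to 0.702) for the 46 without. Within Pcdhg the medians were 0.581 for the 8 genes with a peak and 0.492 for the 13 without, with overlapping ranges. Pcdhgc3 had the highest value of all members, 0.820, and its C-type neighbour Pcdhgc5, without a peak, had 0.251.

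Paralogous exons can leave short reads without a unique place, so the share of 31-base words found once in the assembly was measured beside each count. Over the 2 kb windows the median was 88.7% in Pcdha, 99.5% in Pcdhb and 97.5% in Pcdhg, with the lowest values at Pcdha7 (73.2%), Pcdha6 (77.1%), Pcdhb9 (78.0%) and Pcdha8 (78.2%). The 11 members with a peak had a median of 97.9% and the 46 without had 92.2%, and both sets reached 100%. In the stretch from 300 bp before to 100 bp after the start, the members without a peak had 97.6 to 100% unique words. The lowest there were Pcdhgb6 and Pcdhgb7, at 86.8%, and both had peaks. Within the called regions themselves 67.3% of words were unique at Pcdhgb6 and 62.3% at Pcdhgb7, and the regions in the coding exons of Pcdha2 and Pcdhb14 had 43.2% and 64.2%. The part of repeated words in the signals and footprints of these 4 regions was not tested.

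**Figure D5:**
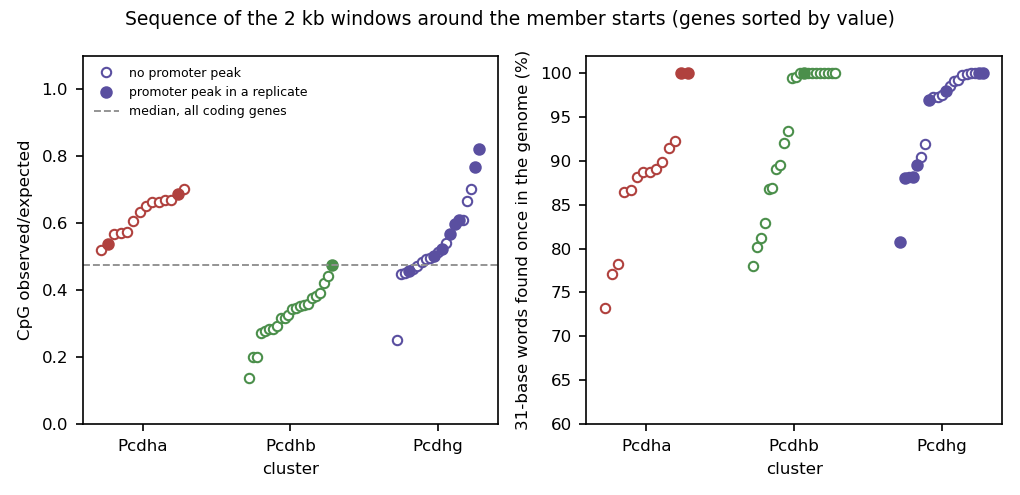
Ratio of observed to expected CpG (left) and percent of 31-base words found once in the genome (right, axis from 60%) in the 2 kb around each member start, by cluster, sorted by value. Filled points had a promoter peak in either replicate; the CpG medians are 0.641 in Pcdha, 0.334 in Pcdhb and 0.513 in Pcdhg, and the dashed line marks 0.474 over all genes.

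Most genes that act on the clusters or beside their products had a shared promoter region, unlike most members. The lowest of them had signals below those of the highest member, Pcdhgc3 (1.59 and 1.76). Of 22 genes for regulators, which cover CTCF, cohesin and its loaders, REST and silencing factors, 22 had a shared promoter region (100%, Wilson interval 85.1 to 100%), beside 58.4% of all genes. Ranked by replicate 1, the highest were Stag1, a cohesin subunit gene (17.9 and 14.8), Rcor1, the gene of the REST corepressor (16.8 and 12.1), and Smc3, for a core cohesin subunit (16.6 and 13.3). The lowest were Lhx2, a homeodomain factor gene (0.785 and 1.24), and the DNA methyltransferase genes Dnmt3a (0.975 and 1.66) and Dnmt3b (1.03 and 1.09). Ctcf itself had 6.95 and 5.63, Rest 2.29 and 3.16, and Smchd1, whose product represses the clusters in mouse, 9.34 and 7.10.

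Of 12 intracellular partner genes, 11 had a shared promoter region (91.7%, 64.6 to 98.5%), beside the same 58.4%. By their values in replicate 1 the highest were Pdcd10 (17.3 and 12.6), Axin1 (9.78 and 7.47) and Abi1, part of the WAVE actin complex (8.78 and 3.80), although 5 further genes of the list exceeded Abi1 in replicate 2. Among the 11 with a shared region, the lowest were Cyfip2 (0.911 and 1.13) and Cyfip1 (2.75 and 3.10), also of that complex, and the kinase gene Ptk2b (1.47 and 1.07). Ret, a receptor kinase gene, had a peak in replicate 1 only, at 0.392.

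Protocadherin genes outside the clusters gave 7 of 12 with a shared promoter region (58.3%, 32.0 to 80.7%), beside 58.4% of all genes, and 7 of 12 had a promoter peak in replicate 1 against 11 of 12 in replicate 2, so the count depended on the library. Their highest values in replicate 1 were at Pcdh17 (3.10 and 2.54), Pcdh1 (1.67 and 1.52) and Pcdh10 (1.44 and 1.48). The lowest shared ones in that library were Pcdh9 (0.342 and 0.990), Pcdh19 (0.354 and 0.519) and Pcdh8 (0.443 and 1.02). Pcdh11x, Pcdh15, Pcdh18 and Pcdh20 had a peak in replicate 2 only, at 0.272 to 0.670, and Pcdh12, known from endothelial cells, had none.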

How the data were processed

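The authors' deposited peak lists give a signal per peak, in a normalization that no source states. The longer of 2 lists per library was used. The deposited FDR files give p-value-like rates per stretch of bases, with only values under 0.05 listed, and the deposited footprint lists carry 0.01 in every line. Aligner and callers were not given in the sources used here. Signals were divided by their step (tolerance 0.05 of a step, 100% whole) to give counts with 95% Poisson intervals. This takes 1 step as 1 count, which no source states. Reads without molecular identifiers are not independent molecules. Coordinates are 1-based on mm10, and sequence came from GRCm38.p6 with GENCODE vM21. The calls of promoter peaks and shared regions were tested on simulated peaks at isolated genes. Closely spaced starts such as those of the clusters, footprints and motifs were not simulated. Members and gene lists were chosen with earlier results of these data known. Named were all members with a promoter peak, shared regions of the span and flank genes with a shared promoter. Per list, the 3 highest and lowest genes with a shared promoter region were named. Motif matches in all windows and uniqueness beside the matches were added after the data were seen. Python 3.11.15, numpy 2.4.6, pandas 2.3.3, scipy 1.17.1 and numba 0.67.0 were used.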

Additional observations from a re-analysis of the deposited data

How the results depend on the processing

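The count of members with a shared promoter region was 5 with windows of 500 bp or 2.5 kb and with only the 5' end of each gene, and the same 5 genes were called. The shorter peak list, whose threshold was not given in the sources used here, left 1 (Pcdhgc3). The upper 50% of peaks by signal left 3 (without Pcdhac1 and Pcdhga12), and a reciprocal overlap of 50% left 4 (without Pcdhac1). Under the same alternatives the share of all genes moved to 57.0% (500 bp), 61.4% (2.5 kb), 53.7% (5' end only), 54.1% (shorter list), 51.2% (upper 50%) and 53.8% (reciprocal overlap). Leaving out a replicate gave 7 to 9 members and 60.6 to 65.3% of all genes. Without replicate 1, Pcdhac2 and Pcdhb1 were added, and without replicate 2, Pcdhga11, Pcdhgb4, Pcdhgb5 and Pcdhgb7. Shared regions of the locus, 36, moved to 21 with the shorter list and 16 with flanks of 100 kb, and to 54 to 59 without a replicate. Distal shared regions of the gene span, 4, moved to 2 (shorter list), 1 (upper 50%) and 5 to 9 without a replicate. Footprints of the locus found in both libraries, 72, moved to 135 to 168 without a replicate. These alternatives admit other numbers of peaks, windows or libraries by construction. No paired analysis was possible because both libraries belong to 1 group. The weakest calls, such as Pcdhac1 with 17 counts in replicate 1, rested on few counts, and the part of depth in them was not tested.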
